A study of Mus musculus with 16 samples.

Results

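The 10 genes described here, Trib3, Ddit3, Atf4, Atf3, Asns, Chac1, Psat1, Phgdh, Shmt2 and Mthfd2, encode transcription factors, stress regulators and enzymes of the ATF4 pathway and of serine synthesis. They were chosen by name, with earlier results of these data known, out of 20972 named genes with a probe on the array. Through the array probes that carry a transcript of each gene, they have 13 probes. Of these, 12 were well above background on at least 3 arrays. RNA came from the soleus, a slow hindlimb muscle, of male mice. The label gives hypoxia as the treatment of all 4 groups, and the groups differ in time: day 0, taken when hypoxia began, and days 3, 7 and 14. Oxygen was lowered stepwise to 10% during the first week and then held. Strain, age, diet and time of day were not given in the labels. Neither was it stated whether each RNA sample was a separate mouse, so p-values measure the spread between these RNA samples.

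ATF4 is a transcription factor of the integrated stress response. Kinases that sense amino acid shortage, unfolded protein, haem shortage or double-stranded RNA phosphorylate the translation factor eIF2, which lowers protein synthesis as a whole and favours translation of the Atf4 transcript, so that ATF4 protein can accumulate without more Atf4 RNA. ATF4 then binds composite elements near genes for amino acid synthesis, amino acid transport and further stress factors, and in muscle this programme is known from mitochondrial disease and atrophy.

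The promoter sequences below are shown because the composite element to which ATF4 binds, spelled TGATGNAA and searched on both strands, lies in the 250 bases before the start of 3 of the 10 genes. It is found in 3.45% of 32851 such windows of RefSeq promoters (GRCm38.p6). Capitals mark the match, and each sequence is written 5′ to 3′ on the strand of its gene. The stretches are chr1:191183410-191183469 on the minus strand for Atf3, chr2:119351023-119351082 on the plus strand for Chac1, and chr6:7693210-7693258 on the minus strand for Asns.
Atf3: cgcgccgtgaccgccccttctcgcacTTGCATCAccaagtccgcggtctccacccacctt
Chac1: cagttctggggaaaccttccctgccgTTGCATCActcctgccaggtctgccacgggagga
Asns: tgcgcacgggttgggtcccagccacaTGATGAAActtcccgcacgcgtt
The match begins 110 bases before the gene start in Atf3, 193 in Chac1 and 23 in Asns, and it reads against the direction of the gene in Atf3 and Chac1. The cyclic AMP response element TGACGTCA, found in 1.55% of all windows, was in 0 of the 10. The core of the hypoxia response element, ACGTG, was in 16.6% of all windows and in 1 of the 10, Asns. These matches describe letters in a window and do not show that a factor was bound.

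Day 0 had 4 RNA samples, day 3 had 3, day 7 had 3 and day 14 had 4. They were measured on 16 arrays with 1 colour on 2 slides. Slide 1 held the day 3 and day 7 samples and day 0 samples 1 and 2. Slide 2 held the day 14 samples and all 4 day 0 samples, so that samples 1 and 2 of day 0 were run on both. Slide 1 was brighter, with a 75th percentile of intensity of 203 to 271 against 49.1 to 77.0. A level below is the log2 intensity of a probe minus the log2 75th percentile of its array. A difference is a limma estimate on that scale, later day minus earlier day, with day and slide as terms and the RNA sample as a block. A gene passed at a Benjamini-Hochberg adjusted p under 0.05 over 22145 features. The differences of days 3, 7 and 14 from day 0 share the same day 0 samples. All 8 skeletal muscle markers, among them Ckm and Myh7, were above background on all 16 arrays. In bulk muscle, fewer cells of a type and less RNA per cell cannot be told apart.

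At day 3, while oxygen was still being lowered, Psat1 rose and Shmt2 fell. These 2 of 10 genes compare with 6.09% of all features called at day 3, 2.27% higher and 3.82% lower. With median scaling the day 3 calls were 59 higher and 45 lower, in place of 503 and 846. The other 8 genes had differences from -0.57 for Chac1 to 0.81 for Asns and did not pass. The 10 genes had a median difference of 0.12, against 0.06 over all features.

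At day 7, Trib3, Atf4 (by its brighter probe) and Psat1 rose and Atf3 and Shmt2 fell. These 5 of 10 genes (50%) compare with 23.8% of all features called at day 7, 15.6% higher and 8.15% lower. The 5 include Atf4, although its dimmer probe, described below, was called lower at day 7. With median scaling these were 4089 higher and 826 lower, in place of 3458 and 1805. The genes did not move in 1 direction: 5 differences were above 0 and 5 below, and their median of 0.09 equalled that of all features to 2 decimals. Ddit3, Asns, Chac1, Phgdh and Mthfd2 did not pass, with differences from -0.51 to 1.08.

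At day 14, after a further week at the stable oxygen level, 0 of the 10 genes passed by limma, 1 had an unadjusted p under 0.05, and 0.402% of all features passed. The largest differences were those of Chac1, at 0.95 ± 0.51 (SE, n = 4 and 4), Trib3, at 0.63 ± 0.18, and Atf3, at -0.59 ± 0.28. Between days 3 and 7, which lie on the same slide, 0 of 10 passed, 5 had an unadjusted p under 0.05, and 0.677% of all features passed. Between days 7 and 14, 0 of 10 passed by limma, 2 had an unadjusted p under 0.05, and 2.3% of all features passed.

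**Figure D1:**
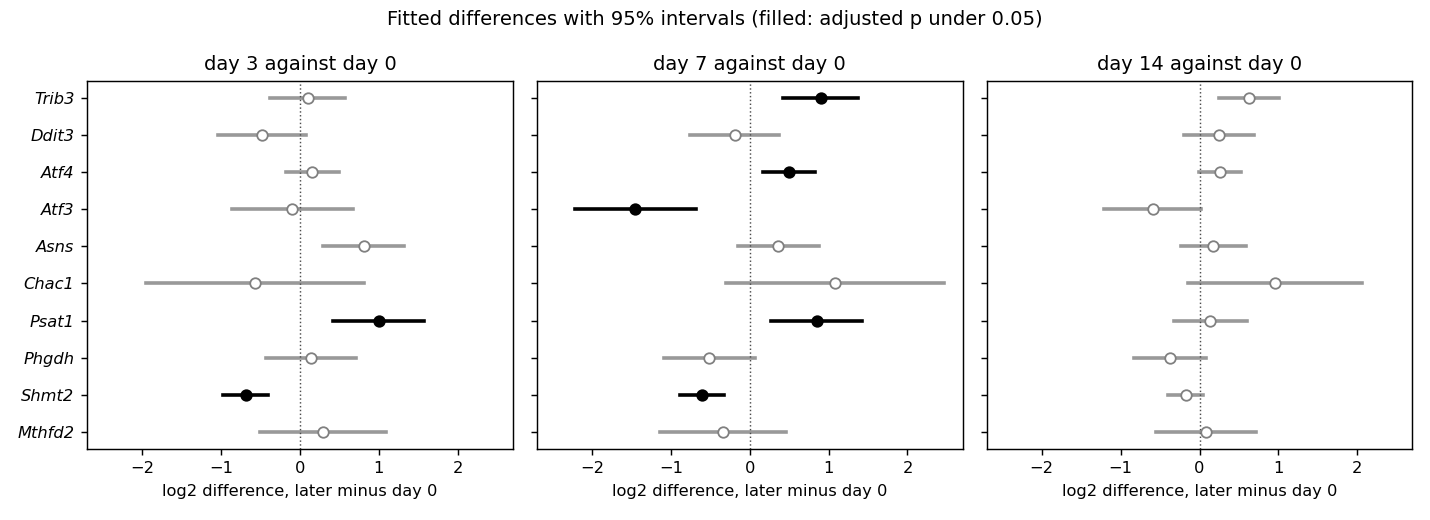
Fitted log2 differences (x axis, later day minus day 0) of the 10 genes at days 3, 7 and 14, with 95% intervals. Filled points passed at an adjusted p under 0.05: 2 genes at day 3, 5 at day 7 and 0 at day 14. Atf4 is shown by its brighter probe, and its dimmer probe was called lower at day 7.

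**Figure D2:**
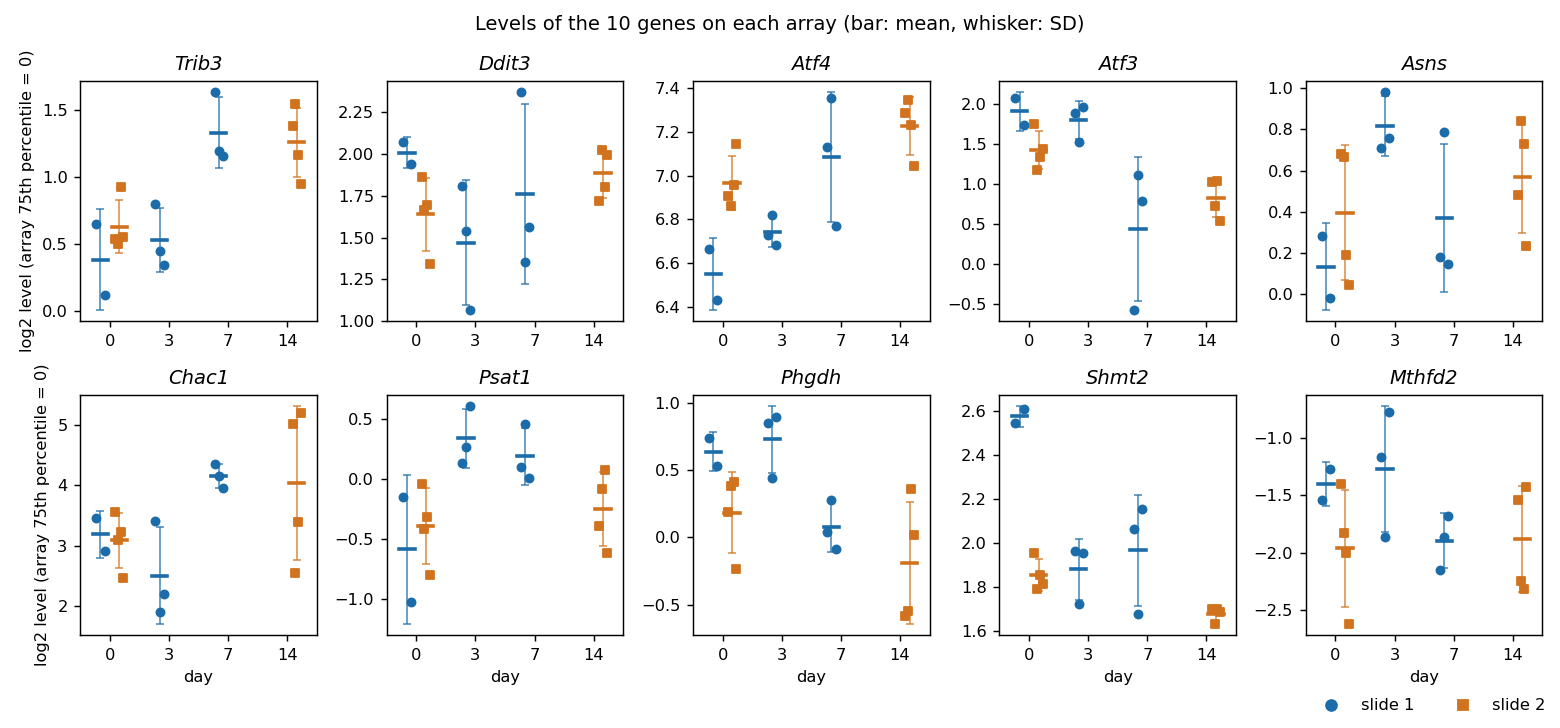
Log2 level (y axis, 0 is the 75th percentile of the array) of each gene on each array by day (x axis), with slide 1 as circles and slide 2 as squares. Bars are means of the arrays of a day on a slide and whiskers their SD. Trib3 lies higher at days 7 and 14 than on the day 0 arrays of the same slide, and Shmt2 stands near 2.58 on both slide 1 arrays of day 0 and near 1.85 on slide 2.

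Atf4, the factor itself, has 2 probes that carry the same transcript. The brighter probe, which stands for the gene, was at 6.67 and 6.43 in day 0 samples 1 and 2 on slide 1. On that slide it was at 6.73, 6.82 and 6.68 at day 3 and at 7.13, 7.36 and 6.77 at day 7. All day 3 and day 7 values lay above both day 0 values, and those of days 3 and 7 overlapped. On slide 2 it was at 6.91, 6.86, 6.96 and 7.14 at day 0 and at 7.29, 7.35, 7.23 and 7.04 at day 14, with 3 of 4 day 14 samples above all day 0 samples. It rose by 0.50 ± 0.15 at day 7 (SE, n = 3 and 4, limma adjusted p = 0.0324), a 1.41-fold increase. At day 3 the difference was 0.16 ± 0.15 (adjusted p = 0.565) and at day 14 0.26 ± 0.12 (adjusted p = 0.252).

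The dimmer Atf4 probe, also above background on all 16 arrays, moved the other way. On slide 1 it was at 2.11 and 1.96 at day 0, at 1.51, 1.54 and 1.08 at day 3, and at 1.25, 1.11 and 1.63 at day 7. On slide 2 this probe was at 1.86, 1.93, 1.65 and 1.72 at day 0 and at 0.94, 1.18, 1.28 and 1.15 at day 14. On each slide every sample of a later day lay below every day 0 sample. Fitted over all kept probes, it fell by 0.66 ± 0.17 at day 7 (limma adjusted p = 0.0184), while its differences at day 3 (-0.61 ± 0.17, adjusted p = 0.0583) and day 14 (-0.65 ± 0.14, adjusted p = 0.0539) did not pass. Over the 8 arrays of each slide, the levels of the 2 probes had a correlation of -0.67 on slide 1 and -0.80 on slide 2. With the mean of both probes in place of the brighter one, the day 7 difference of Atf4 was -0.08 (adjusted p = 0.663), so no direction of the Atf4 transcript can be given from these data. The call of the brighter probe was also lost without day 0 sample 1 (0.60, adjusted p = 0.0705), day 0 sample 2 (0.38, adjusted p = 0.271), day 7 sample 1 (0.48, adjusted p = 0.0858) or day 7 sample 2 (0.36, adjusted p = 0.128). It was lost too with only the slide 2 arrays for day 0 (0.12, adjusted p = 0.577), without the slide term (0.27, adjusted p = 0.215), with the deposited series table (0.33, adjusted p = 0.0630), after quantile normalization (0.31, adjusted p = 0.0766) and without the filter on dim probes (0.49, adjusted p = 0.0713).

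**Figure D3:**
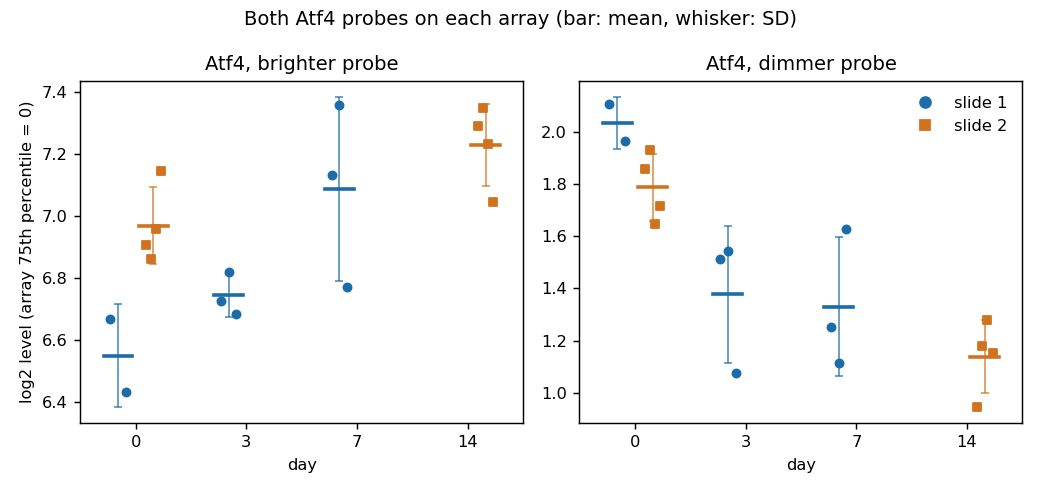
Log2 level (y axis, 0 is the 75th percentile of the array) of both Atf4 probes on each array by day (x axis), with slide 1 as circles, slide 2 as squares, bars for means and whiskers for SD. The brighter probe is higher at day 7 than at day 0 on slide 1, from 6.77 to 7.36 against 6.43 and 6.67, while the dimmer probe is lower on every array of a later day than on the day 0 arrays of its slide.

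Trib3 encodes a pseudokinase that ATF4 and CHOP induce and that dampens their activity. On slide 1 its level was 0.65 and 0.12 at day 0, 0.80, 0.45 and 0.35 at day 3, and 1.64, 1.20 and 1.16 at day 7. The day 3 values overlapped those of day 0, and all 3 day 7 samples lay above all others on the slide. The slide 2 levels were 0.54, 0.50, 0.93 and 0.56 at day 0 and 1.39, 1.54, 1.16 and 0.95 at day 14, without overlap. Trib3 rose by 0.90 ± 0.22 at day 7 (limma adjusted p = 0.0121), which is 1.86-fold. The differences at day 14 (0.63 ± 0.18, adjusted p = 0.0981) and between days 3 and 7 (0.80 ± 0.20, adjusted p = 0.0933) did not pass. The day 7 call held in 25 of 26 alternative analyses and was lost without day 0 sample 2, where the difference was 0.62 (adjusted p = 0.178). Some of the 26 leave out a day 3 or day 14 sample. These touch the day 7 difference mainly through the shared estimate of the spread, so they test the call little.

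Atf3 encodes a stress-induced repressor of the ATF and CREB family, itself a target of ATF4 and also an immediate early gene. On slide 1 its level was 2.07 and 1.73 at day 0, 1.89, 1.52 and 1.96 at day 3, and -0.58, 1.11 and 0.79 at day 7. All day 7 samples lay below all others on the slide, with sample 1 the lowest. Levels on slide 2 were at 1.74, 1.17, 1.34 and 1.43 at day 0 and at 1.02, 0.72, 1.04 and 0.54 at day 14, again without overlap. Atf3 fell by 1.45 ± 0.36 at day 7 (limma adjusted p = 0.0120), a 2.73-fold decrease. The differences at day 14 (-0.59 ± 0.28, adjusted p = 0.255) and between days 3 and 7 (-1.35 ± 0.33, adjusted p = 0.0819) did not pass. The day 7 call was lost without day 0 sample 1 (-1.36, adjusted p = 0.0725) or sample 2 (-1.53, adjusted p = 0.0905). In 26 alternative analyses the difference stayed between -1.78 and -0.94, the latter without day 7 sample 1 (adjusted p = 0.0186). Without the slide 1 arrays of day 0 it was -0.98 and did not pass (adjusted p = 0.0511), though day and slide cannot be told apart there.

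Ddit3 encodes CHOP, a pro-apoptotic factor downstream of ATF4. It was at 2.07 and 1.94 at day 0, at 1.81, 1.54 and 1.07 at day 3 and at 2.37, 1.35 and 1.56 at day 7 on slide 1. On slide 2 it ranged from 1.34 to 1.86 at day 0 and from 1.72 to 2.02 at day 14. No comparison passed: the day 3 difference was -0.48 ± 0.26 (limma adjusted p = 0.265), that of day 7 -0.19 ± 0.26 (adjusted p = 0.643) and that of day 14 0.25 ± 0.21 (adjusted p = 0.532). In RefSeq, Ddit3 overlaps Mbd6 and Mars1, and the probe position was not used here.

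Chac1, a glutathione-degrading enzyme and one of the more responsive targets of ATF4, had the largest SE of the 10 genes in each comparison with day 0. On slide 1 it was at 3.46 and 2.91 at day 0, at 3.41, 1.89 and 2.21 at day 3, and at 4.35, 4.15 and 3.96 at day 7. All day 7 samples lay above all other samples of the slide. The slide 2 levels ranged from 2.47 to 3.56 at day 0 and were at 5.01, 2.55, 3.40 and 5.20 at day 14, so that day 14 samples 1 and 4 stood far above the other day 14 samples, which lay within the day 0 range. The difference was 1.08 ± 0.64 at day 7 (95% interval -0.31 to 2.46, limma adjusted p = 0.248) and 0.95 ± 0.51 at day 14 (-0.15 to 2.06, adjusted p = 0.311). Between days 3 and 7 it was 1.65 ± 0.59 (adjusted p = 0.211). None of these passed, and the intervals allow a difference of over 2 on the log2 scale.

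Asns encodes asparagine synthetase, the standard reporter of the amino acid response. On slide 1 it was at 0.28 and -0.02 at day 0, at 0.71, 0.98 and 0.76 at day 3, and at 0.18, 0.79 and 0.15 at day 7. The day 3 samples lay above both day 0 samples and day 7 overlapped with both days. On slide 2 it was at 0.68, 0.67, 0.19 and 0.04 at day 0 and at 0.48, 0.84, 0.73 and 0.23 at day 14. The day 3 difference of 0.81 ± 0.24 did not pass (limma adjusted p = 0.0629). It passed in 5 of 26 alternatives, with an adjusted p from 0.00926 to 0.352 over all 26. At day 7 it was 0.36 ± 0.24 (adjusted p = 0.303) and at day 14 0.17 ± 0.19 (adjusted p = 0.643).

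The serine pathway makes serine from a glycolytic intermediate and passes its carbon to folate. Phgdh encodes its first enzyme, Psat1 the aminotransferase that follows, Shmt2 the mitochondrial enzyme that splits serine into glycine and a one-carbon unit, and Mthfd2 a mitochondrial folate dehydrogenase. The calls of these neighbours in the pathway differed: Psat1 was called higher, Shmt2 lower, and Phgdh and Mthfd2 did not pass at any day. Differences between the genes were not tested, and the limits of the Psat1 and Shmt2 calls are given below.

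Psat1 was at -0.15 and -1.03 at day 0 on slide 1, at 0.13, 0.27 and 0.61 at day 3 and at 0.09, 0.45 and 0.01 at day 7. Both later days lay above day 0 and overlapped each other. Slide 2 had -0.04, -0.42, -0.32 and -0.80 at day 0 and -0.39, -0.09, 0.07 and -0.62 at day 14, with overlap. Psat1 rose by 0.998 ± 0.267 at day 3 (limma adjusted p = 0.0443) and by 0.85 ± 0.27 at day 7 (adjusted p = 0.0347, 1.80-fold). At day 14 the difference was 0.14 ± 0.21 (adjusted p = 0.752). A second Psat1 probe was above background on 0 arrays.

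Both Psat1 calls rest on few samples. Without day 0 sample 2, whose level of -1.03 was the lowest on slide 1, the difference was 0.64 at day 3 (limma adjusted p = 0.408) and 0.49 at day 7 (adjusted p = 0.365). The day 3 call was lost in 10 of the 14 analyses that left out 1 sample, with a difference from 0.64 to 1.41. The day 7 call was also lost without day 7 sample 1 (0.90, adjusted p = 0.0653) or sample 2 (0.71, adjusted p = 0.127), and it passed in 17 of 26 alternatives. After normexp background correction both passed with smaller differences, 0.66 at day 3 (adjusted p = 0.00906) and 0.53 at day 7 (adjusted p = 0.0151).

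Shmt2 was at 2.55 and 2.61 at day 0 on slide 1, at 1.96, 1.72 and 1.96 at day 3 and at 2.06, 1.68 and 2.16 at day 7. All samples of both later days lay below both day 0 samples. On slide 2 it was at 1.96, 1.79, 1.85 and 1.81 at day 0 and at 1.70, 1.63, 1.70 and 1.69 at day 14, without overlap. Shmt2 fell by 0.69 ± 0.13 at day 3 (limma adjusted p = 0.0178, 1.61-fold) and by 0.60 ± 0.13 at day 7 (adjusted p = 0.00709, 1.52-fold). The day 14 difference of -0.18 ± 0.10 did not pass (adjusted p = 0.362), although the 4 day 14 samples lay below all day 0 samples. In RefSeq, Shmt2 overlaps Ndufa4l2, and the probe position was not used here.

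With slide as a term, differences of days 3 and 7 from day 0 rest largely on the slide 1 arrays of day 0. This holds for the Shmt2 calls as for those of the other genes. Day 0 samples 1 and 2, run on both slides, had differences of -0.59 and -0.82, slide 2 minus slide 1. These are similar in size to the Shmt2 differences of days 3 and 7 from day 0. Within slide 1 alone those were -0.70 at day 3 and -0.61 at day 7, and neither passed. The part of the slide in the calls was not tested. Without the slide 1 arrays of day 0, the difference of Shmt2 was 0.03 at day 3 (limma adjusted p = 0.929) and 0.11 at day 7 (adjusted p = 0.537), though day and slide cannot be told apart there. Without the slide term, which mixes day and slide in part, it was -0.23 at day 3 (adjusted p = 0.518) and -0.15 at day 7 (adjusted p = 0.593). The day 3 call was lost without day 0 sample 1 (-0.74, adjusted p = 0.0748), day 0 sample 2 (-0.63, adjusted p = 0.211) or day 3 sample 2 (-0.61, adjusted p = 0.0670). The day 7 call was lost without day 0 sample 2 (-0.54, adjusted p = 0.0978).

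**Figure D4:**
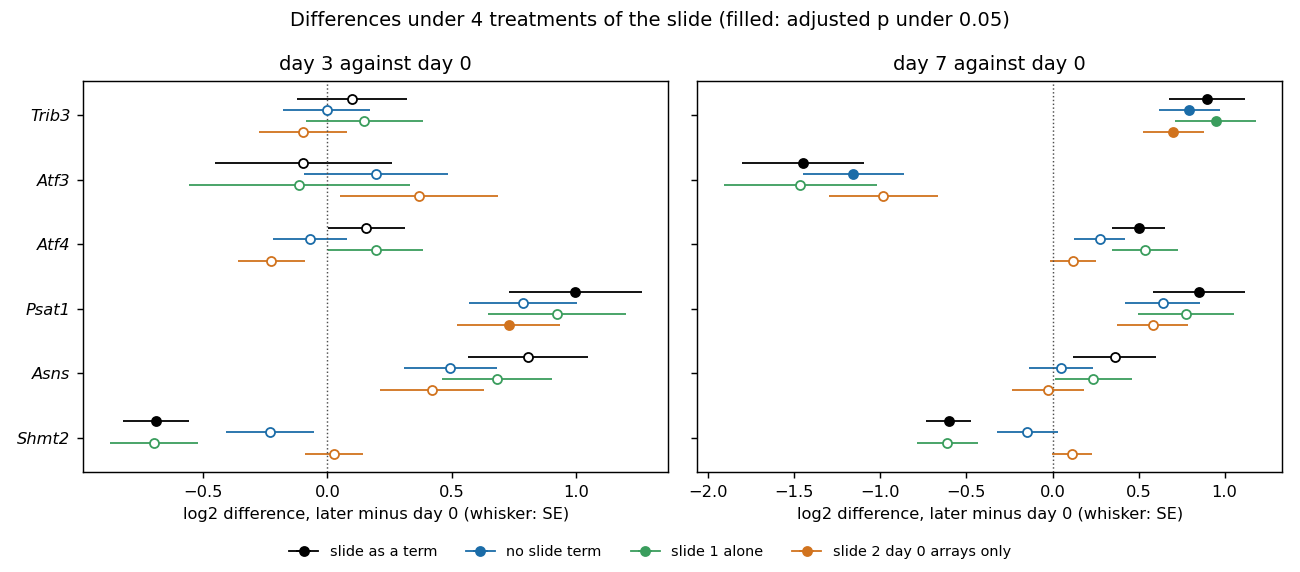
Log2 differences (x axis, later day minus day 0) of 6 of the genes at days 3 and 7 under 4 treatments of the slide, with whiskers for the SE and filled points for an adjusted p under 0.05. Trib3 at day 7 passed under all 4. Shmt2 at day 7 moved from -0.60 with slide as a term to 0.11 with only the slide 2 arrays of day 0. Day and slide cannot be told apart in the latter.

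Within slide 1 alone, where day 0 has samples 1 and 2, Trib3 passed at day 7, with 0.95 ± 0.23 (SE, limma adjusted p = 0.0468). The other calls did not pass there. At day 7 the differences were -1.47 for Atf3 (adjusted p = 0.0670), 0.54 for Atf4 (adjusted p = 0.0947), 0.78 for Psat1 (adjusted p = 0.0983) and -0.61 for Shmt2 (adjusted p = 0.0612). At day 3 they were 0.92 for Psat1 (adjusted p = 0.151) and -0.70 for Shmt2 (adjusted p = 0.129). All 7 kept the direction they had with both slides. Both fits draw largely on the same slide 1 arrays, so the kept direction adds no support to the calls.

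Phgdh has 2 probes, whose levels had a correlation of 0.97 over the 8 arrays of slide 1 and 0.81 over those of slide 2. The brighter one was at 0.74 and 0.53 at day 0, at 0.85, 0.44 and 0.89 at day 3 and at 0.04, 0.28 and -0.09 at day 7 on slide 1. All day 7 samples lay below all others of the slide. On slide 2 it was at 0.19, 0.38, 0.41 and -0.24 at day 0 and at -0.58, -0.55, 0.36 and 0.02 at day 14. The day 7 difference was -0.51 ± 0.27 (limma adjusted p = 0.184), that of day 14 -0.37 ± 0.21 (adjusted p = 0.343) and that between days 3 and 7 -0.65 ± 0.25 (adjusted p = 0.237). The dimmer probe had -0.45 ± 0.30 at day 7.

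Mthfd2 was the dimmest of the 10 relative to background, above it on 10 of 16 arrays, and this followed the slide. On slide 1 it was above background on 2 of 2 arrays at day 0, 3 of 3 at day 3 and 3 of 3 at day 7. On slide 2 it was so on 1 of 4 arrays at day 0 and 1 of 4 at day 14. Slide 1 levels ran from -1.54 to -1.27 at day 0, from -1.86 to -0.78 at day 3 and from -2.15 to -1.68 at day 7. Slide 2 levels ran from -2.62 to -1.40 at day 0 and from -2.32 to -1.43 at day 14. The day 3 difference was 0.29 ± 0.37 (limma adjusted p = 0.665), that of day 7 -0.34 ± 0.37 (adjusted p = 0.554) and that of day 14 0.08 ± 0.30 (adjusted p = 0.907). Values this close to background limit any statement on it.

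Within slide 1, the day 3 groups of 5 of the 10 genes did not overlap those of day 0, against 43.1% of all features, and at day 7 those of 8 did not, against 55.1%. Within slide 2, the day 14 groups of 3 genes did not overlap those of day 0, Trib3, Atf3 and Shmt2, against 14.1% of all features. Between days 3 and 7 the groups of 4 genes did not overlap, Trib3, Atf3, Chac1 and Phgdh, against 17.2%.

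Across the 14 RNA samples, after adjustment for slide, the levels of some of the 10 genes tracked each other. The correlation was 0.85 between Asns and Psat1 and 0.74 between Trib3 and Atf4 (brighter probe). It was -0.84 between Psat1 and Shmt2, -0.81 between Asns and Shmt2 and -0.77 between Trib3 and Atf3. These samples span 4 days and share 2 slides, so the values describe the data only. Among 14107 named genes, the highest correlations were with Thra (0.92), Nfyc (0.91) and Dus1l (0.90) for Trib3, and with Cwc15 (0.97), Rsl1d1 (0.96) and Marchf8 (0.96) for Atf4. They were with Hacd2 (0.86), Tmem43 (0.84) and Rcan1 (0.83) for Atf3, and with Gpr137b-ps (0.96), Macir (0.92) and Rab29 (0.92) for Psat1. For Shmt2 they were with Otub1 (0.98), Wdtc1 (0.97) and Ulk3 (0.97).

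Upstream of ATF4, the list of 16 genes holds the eIF2 kinases, eIF2 itself (Eif2s1), regulatory subunits of its phosphatases, the exchange factor eIF2B, and Oma1, Dele1, Gcn1 and Impact, which act on the kinases. It had 3 higher and 2 lower at day 7, with a median of 0.11 against 0.09 over all features. Eif2ak4, the kinase GCN2 that senses amino acid shortage, rose by 1.12 ± 0.19 (limma adjusted p = 0.00348). Eif2ak3, the kinase PERK of the endoplasmic reticulum, rose by 0.55 ± 0.15 (adjusted p = 0.0211). Eif2ak1, the haem-regulated kinase, fell by 0.94 ± 0.24 and Eif2b5, a subunit of eIF2B, by 0.44 ± 0.14 (adjusted p = 0.0130 and 0.0396). At days 3 and 14, 0 of the 16 passed.

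Of 14 dimerisation partners and relatives, 1 was higher and 2 were lower at day 7, with a median of -0.02. Xbp1, a factor of the unfolded protein response, rose by 0.55 ± 0.15 (limma adjusted p = 0.0191). Cebpg, a partner of ATF4, fell by 0.48 ± 0.14 and Trib1, a relative of Trib3, by 0.60 ± 0.20 (adjusted p = 0.0268 and 0.0478). At days 3 and 14, 0 passed.

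Of 33 further known targets of ATF4, 28 were measured, and 3 were higher and 4 lower at day 7, with a median of 0.12. Vldlr, a lipoprotein receptor that hypoxia can also induce, rose by 0.62 ± 0.15 at day 3 and 1.10 ± 0.15 at day 7 (limma adjusted p = 0.0326 and 0.00176). Psph, which completes serine synthesis, rose by 0.70 ± 0.15 at day 7 (adjusted p = 0.00674). The amino acid transporter Slc38a2 fell by 0.63 ± 0.17 and the proline synthesis enzyme Aldh18a1 by 1.86 ± 0.53 (adjusted p = 0.0171 and 0.0226). Aldh18a1 was above background on 2 of 6 day 0 arrays and 2 of 3 day 7 arrays, which limits its size. Vldlr was the 1 gene called at day 3, and 0 passed at day 14.

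Among 19 measured cytosolic tRNA synthetases, many of which ATF4 can induce, 3 were higher and 1 lower at day 7, with a median of 0.07. Gars, for glycine, rose by 0.62 ± 0.14 at day 3 and 0.85 ± 0.14 at day 7 (limma adjusted p = 0.0297 and 0.00338), and Cars, for cysteine, by 0.68 ± 0.12 at day 7. Vars, for valine, fell by 1.01 ± 0.25 at day 7. Of 23 measured other genes of serine, glycine and folate metabolism, 3 were higher and 0 lower at day 7, with a median of 0.24 against 0.09 over all features. Gcat, a mitochondrial enzyme of threonine breakdown to glycine, rose by 0.92 ± 0.19, and Psph is on this list too. At day 3, Mthfd2l, a relative of Mthfd2, rose by 0.89 ± 0.24 (adjusted p = 0.0484).

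Of 23 genes of the unfolded protein response of the endoplasmic reticulum, 3 were higher and 3 lower at day 7, with a median of 0.09. The higher ones include Xbp1 and Eif2ak3. The chaperone Calr fell by 0.80 ± 0.21 (limma adjusted p = 0.0154). The chaperone Hyou1 was at least 2.42-fold lower on slide 1, since 0 of 3 day 7 arrays were above background (adjusted p = 0.00211). This bound sets the day 0 mean against the higher of the value and the lowest level above background of each dim array. Hyou1 was above background on only 2 of 6 day 0 arrays and 0 of 4 day 14 arrays. The fit behind its adjusted p thus used levels below background, which limits what can be said of its fall.

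Of 12 mitochondrial chaperones and proteases, 5 were higher and 1 lower at day 7, with a median of 0.33. Spg7 and Clpx, which take part in mitochondrial proteolysis, rose by 0.69 ± 0.12 and 0.62 ± 0.16 (limma adjusted p = 0.00353 and 0.0133), and Clpp, the partner of Clpx, fell by 0.42 ± 0.13. Of 10 measured glutathione genes, 0 were higher and 1 lower at day 7, Gss, at -0.63 ± 0.16. At days 3 and 14, 0 genes of the unfolded protein response, mitochondrial and glutathione lists passed.

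Of 25 immediate early genes, which include relatives and partners of Atf3, 1 was lower at day 3, and 1 was higher and 1 lower at day 7. Junb fell by 1.50 ± 0.40 at day 3 (limma adjusted p = 0.0416), with 2 of 6 day 0 arrays and 1 of 3 day 3 arrays above background, which limits its size. At day 7, Gadd45a, a stress-responsive growth arrest gene, rose by 0.73 ± 0.24 and Jund fell by 1.07 ± 0.30 (adjusted p = 0.0433 and 0.0214). As a check of the exposure, 0 of 13 hypoxia genes passed at day 3 by limma, and 4 were higher and 0 lower at day 7, with a day 7 median of 0.10 against 0.09 over all features. Pfkfb3 rose by 1.49 ± 0.34 and Ankrd37 by 0.64 ± 0.13 at day 7, and Ankrd37 was the 1 gene that passed at day 14, with 1.14 ± 0.11 (adjusted p = 0.00139).

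The lists share genes, and their counts at day 7 stand beside the 23.8% of all features called. Day 0 samples 1 and 2 are the only samples run on both slides and the only day 0 samples on slide 1. Leaving out either leaves 1 such sample to fit the slide term, whatever its own levels. How far this accounts for lost calls was not tested. Without day 0 sample 2, 107 of 22145 features passed at day 7 by limma, and 0 of the 25 genes named from the lists for that comparison did. Without day 0 sample 1, 12 of the 25 passed, without day 7 sample 1, 17, and without day 7 sample 2, 16. Of the 4 named at day 3, 0 passed without day 0 sample 1, day 0 sample 2 or day 3 sample 2, and 1 passed without day 3 sample 1. Without the slide 1 arrays of day 0, the differences of Eif2ak1, Eif2b5, Vars, Calr and Clpp at day 7 turned to 0.013, 0.0068, 0.051, 0.099 and 0.17. Day and slide cannot be told apart there.

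Markers of other cells moved at the same days. The genes followed above through left-out samples and other alternatives include no cell markers, so how far the marker calls hold is not given. Of 6 measured macrophage markers of 8, 3 were lower and 0 higher at day 7, with a median of -1.10. Their summed level, on the log2 scale, was 4.04 to 4.54 at day 0, 4.01 to 5.27 at day 3, 3.52 to 3.70 at day 7 and 3.96 to 4.04 at day 14. C1qa fell by 1.62 ± 0.36 and C1qb fell by 1.53 ± 0.36 at day 7 (limma adjusted p = 0.00761 and 0.00966), the day at which Atf3 fell, and their part in the Atf3 difference was not tested.

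Of 3 measured neutrophil markers of 4, S100a9 fell by 3.47 ± 0.89 and S100a8 fell by 3.04 ± 0.81 at day 7, and Csf3r rose by 0.36 ± 0.11. S100a8 was above background on 6 of 6 day 0 arrays and 1 of 3 day 7 arrays, which limits its size. The summed level of the 3 was 7.01 to 7.24 at day 0 and 7.31 to 7.59 at day 7. It follows Csf3r, which was at 7.30 to 7.59 by itself at day 7, and does not show the lower S100a8 and S100a9. Cxcr2 was above background on 0 arrays. All 3 red blood cell markers were higher at day 14, with a summed level of 9.29 to 10.3 against 7.71 to 8.25 at day 0, and 1 was lower at day 3. Day 14 is also the day of the largest spread of Chac1. The part of these cells in the differences of the 10 genes was not tested.

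Among the remaining lists, 1 of 8 skeletal muscle markers, Tnni1, was lower at days 3 and 7. Its day 0 level was 8.37 to 8.56 on slide 1 but 7.25 to 7.51 on slide 2. On slide 1 it was at 7.35 to 7.74 at day 3 and 6.96 to 7.60 at day 7. Of 5 endothelial markers 1 was lower at day 7. Of 5 fibroblast markers 1 was higher at day 3, and 1 was higher and 1 lower at day 7. Of 4 adipocyte markers 1 was higher at day 3, Lep, above background on 0 of 6 day 0 arrays and 2 of 3 day 3 arrays and at least 1.01-fold higher on slide 1. The summed level of the list at day 3 was 3.32 to 4.22 against 2.75 to 2.90 at day 0. Of 3 Schwann cell markers 1 was lower at day 7, and of 3 tendon markers 1 was lower at day 14. Of 2 measured satellite cell markers of 3, 0 passed, and Myf5 was above background on 0 arrays.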

How the data were processed

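Total RNA was labelled with Cy3 and hybridised to Agilent arrays with 1 colour. Per the file headers, the authors' scanner files hold linear spot intensity from Agilent Feature Extraction 11.0.1.1, background-subtracted and not scaled between arrays. A series table of intensity values, deposited with them, was made by steps not given in the sources used here and served as an alternative.

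The deposited intensity was put on the log2 scale and reduced by the log2 75th percentile of the array's non-control spots. Spots of a probe were averaged, without spots marked as outliers. Of 55681 probes, 27656 (49.7%) were named through RefSeq (GRCm38.p6). Probes well above background on 3 or more of 16 arrays remained (29479). Each gene was represented by its probe with the highest mean, for 22145 features. No spot was saturated.

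Days were compared with limma 3.58.1 (R 4.3.3, statmod 1.5.0), 2-sided. Day and slide were fixed terms. The RNA sample was a random block, with a correlation of 0.448, 11 residual and 2.45 prior degrees of freedom. The procedure was tested on simulated data. Tables used Python 3.11.15, NumPy 2.4.6 and pandas 2.3.3. The 10 genes and the lists were chosen with earlier results of these data known. All 10 genes are named. From each list the rule takes up to 2 genes in each direction per comparison, by the smallest p, and for each called gene the 3 most correlated. Marker genes and list genes of days 3 to 7 and 7 to 14 are named in part. Precision is limited by how few RNA samples each day has. RNA samples are numbered 1, 2 and 4 at days 3 and 7, and a sample 3 of those days was not analysed here.

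RNA sample numbers occur at all days. Deviations from the day means correlated above 0.1 in 6 of 19 pairs with the same number and in 7 of 54 with different numbers. The median correlations were 0.05 and -0.01. This check does not settle whether the numbers pair samples, and the main fit did not pair them. Other background corrections, scalings, filters, slide treatments and left-out samples were tried, and the closing section gives their effect.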

Additional observations from a re-analysis of the deposited data

How the results depend on the processing

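The counts of the 10 genes that passed were 2 at day 3, 5 at day 7 and 0 in the other 3 comparisons. At day 3 the count was 0 with median scaling, without the slide term and within slide 1 alone, and 1 without the filter on dim probes, after quantile normalization and without the slide 1 arrays of day 0. It was 3 with the arrays of an RNA sample averaged, after normexp correction and with only the probes above background everywhere. In those, Asns passed too (limma adjusted p = 0.0183, 0.00926 and 0.0208). At day 7 it was 3 with the deposited series table, without the filter and after quantile normalization, 2 without the slide term, and 1 both within slide 1 and with only the slide 2 arrays of day 0. Phgdh passed at day 7 after normexp correction (-0.37, limma adjusted p = 0.0406). At day 14 the count was 1 without the slide term. Between days 3 and 7 it was 1 with the series table, 2 with only the probes above background everywhere and 3 after normexp correction. Between days 7 and 14 it was 2 with the arrays of an RNA sample averaged and 1 after normexp. Leaving out 1 sample gave 0 to 3 at day 3, 0 to 5 at day 7 and 0 elsewhere; without day 0 sample 2, 0 passed at days 3 and 7. With the RNA sample number as a replicate block, 3 genes passed at day 3 and 5 at day 7. Whether the numbers pair samples was not settled.

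Signs turned for Shmt2 (0.026 at day 3, 0.11 at day 7), Eif2ak1 (0.013), Eif2b5 (0.0068), Vars (0.051), Calr (0.099) and Clpp (0.17) at day 7 without the slide 1 arrays of day 0, where day and slide cannot be told apart. The difference of Atf4 at day 7 was -0.079 with the mean of its probes. The causes were not tested. Of 43 uncalled pairs of gene and comparison, 16 turned sign in at least 1 alternative.

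The features called ranged from 0 to 3505 at day 3, 107 to 7231 at day 7, 1 to 3094 at day 14, 0 to 745 between days 3 and 7 and 5 to 4834 between days 7 and 14, against 1349, 5263, 89, 150 and 509. Median scaling moved the median of all features from 0.06 to 0.17 at day 3, from 0.09 to 0.22 at day 7, from 0.06 to -0.04 at day 14 and from -0.04 to -0.27 between days 7 and 14. Normexp used the median signal, since the files hold no mean signal, and leaving out day 0 sample 1 or 2 used the correlation of the full set; both were chosen after seeing the data.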
